A study of Mus musculus with 15 samples.

Results

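The leukocyte CD surface antigens described here are 41 mouse genes whose symbol is Cd followed by a number, with at most a letter and a digit after it. Cd22, Cd24a and Cd79b, whose symbols also match, were left out. The 41 genes are covered by 52 of the 20205 cDNA probes and were taken from 9834 genes with a symbol. On 15 two-colour arrays, RNA of a treated lymphoid ES (embryonic stem) cell line was set against RNA of the untreated line. Both RNAs were on every array. The treated RNA carried the dye Cy5 on 8 arrays (1 to 8) and Cy3 on 7 arrays (9 to 15). The agent, its dose and its duration, the genotype of the line and the number of cultures are not stated in the labels. Part of their protocol text mentions organs and control animals, which a cell line does not have.

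CD (cluster of differentiation) numbers are given to leukocyte surface proteins that are recognised by defined sets of antibodies, so the genes belong to no single family. They include the signalling chains and coreceptors of the T cell receptor, costimulatory receptors and their ligands, tetraspanins that organise membrane proteins into microdomains, scavenger and lectin receptors of macrophages, proteins that protect cells from complement, and adhesion molecules. ES cells are pluripotent and differentiated lymphocytes are not, and many CD proteins serve to tell stages of blood cell differentiation apart.

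The unit throughout is the log2 ratio of the 2 channels as deposited, where 0 means equal signals. A gene's level cannot be read from it, so whether a CD antigen was present in these cells was not measured. A value above 0 is read here as likely more RNA in the treated line. The basis is that all 1117 placeholder values for an empty channel lay above 0 with the treated RNA in Cy5 and all 882 lay below 0 with it in Cy3. A fixed Cy5 over Cy3 ratio whose sign was already turned for the dye swaps gives this pattern, but the direction is stated in no label. Other values do not settle the direction. A dye difference in turned ratios and a treatment effect in unturned ratios cannot be told apart in them. Over probes, the median correlation was 0.083 between arrays of the same orientation and -0.058 between arrays of opposite orientation, a sign that turning the swaps would reverse. With the swaps turned, 254 genes in all would pass for the treatment, in place of 4. Each gene was therefore described by its mean over both dye orientations (the treatment estimate) and by 0.5 times the difference between them, treated in Cy5 minus treated in Cy3 (the dye effect). If the swaps had not been turned before deposition, the 2 quantities would change places. The p-values measure the spread between arrays, which may be technical. In such bulk RNA, fewer cells of a type and less RNA per cell cannot be told apart.

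All 41 genes were measured on 4 or more arrays per orientation and were tested, 33 of them with values on all 15 arrays. Between 19213 and 19973 probes per array were measured. Array medians over all genes tested lay between -0.03 and 0.06 and standard deviations between 0.32 and 0.74 (log2 ratio). Arrays 7, 8 and 15 correlated with no other array above r = 0.083 over probes, and the highest correlation of any pair was 0.32 (arrays 5 and 6). Of 755 spot values of the CD antigens, 12.1% sat on the log2 of a ratio of small whole numbers plus the constant of the array, against 9.98% over all named probes. By coincidence, 1.68% to 2.90% of the values of an array matched such a ratio when its constant was shifted. These values are called dim here, since ratios of small whole numbers arise from few intensity units, but no intensities were used to check this. On array 1, the genes Cd59a, Cd59b and Cd248 and a probe of Cd247 all read 0.88.

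None of the 41 CD antigen genes passed limma's test for the treatment (Benjamini-Hochberg adjusted p under 0.05 over 9720 genes), where 0.0412% of all genes tested passed. At an unadjusted p under 0.05 there were 2 of 41, Cd52 below 0 and Cd83 above 0, or 4.88%, beside 7.02% of all genes. Estimates ran from -0.25 (Cd55) to 0.23 (Cd59b), with 18 genes above 0 and 23 below. Their median was -0.03, beside 0.01 over all genes, and the sign of the members' median changed with the processing. The median size of an estimate regardless of sign was 0.069 for the CD antigens and 0.075 for all genes. Standard errors lay between 0.05 and 0.28.

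If the swaps were turned before deposition, the 95% intervals bound the treatment estimate, given the spread between arrays. They would be too narrow if swapped arrays share RNA with the others. For 35 of 41 CD antigens (85.4%) the interval lay between -0.5 and 0.5, beside 84.3% of all genes tested. For all 41 it lay between -1 and 1, where 1 is a doubling, beside 9512 of 9720 genes tested. These intervals rest on the values left after placeholders were set to missing, which touched Cd6, Cd8a and Cd82. For these genes they set no bound on a change beyond a doubling. With placeholders left in, the estimate was 2.90 for Cd82 and 0.30 (SE 0.36) for Cd8a, and that of Cd6 was not recorded.

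**Figure D1:**
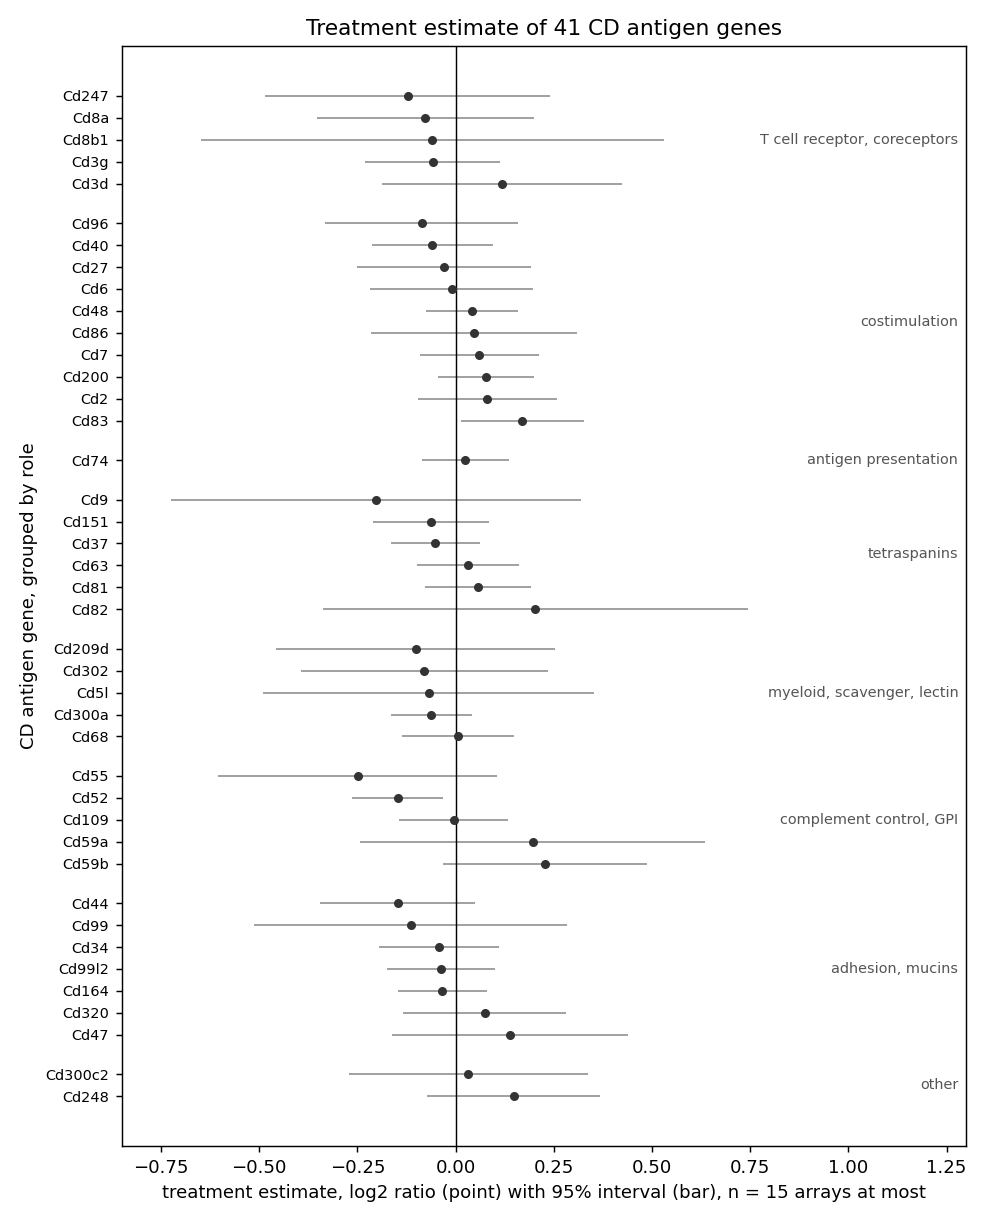
Treatment estimate (log2 ratio, points) with its 95% interval (bars) for the 41 CD antigen genes, grouped by role. Only the intervals of Cd52 and Cd83 leave out 0, before adjustment for the 9720 genes tested, the outermost bounds are 0.74 (Cd82) and -0.72 (Cd9), and the widest interval is that of Cd8b1, from -0.65 to 0.53.

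The gene with the smallest p was Cd52, a short glycoprotein held in the lymphocyte membrane by a lipid anchor. With the treated RNA in Cy5 its log2 ratios ran from -0.15 over a median of -0.04 to 0.19. In the dye swaps they ran from -0.64 over a median of -0.22 to -0.04. The swaps were all below 0 while the other arrays lay around 0, and the ranges overlap. The treatment estimate was -0.15 ± 0.05 (SE, n = 15 arrays; limma adjusted p = 0.608), below 0 on 12 arrays. The mean was 0.00 ± 0.12 (SD, n = 8) with the treated RNA in Cy5 and -0.30 ± 0.23 (SD, n = 7) in the swaps. The dye effect of Cd52 was 0.15 ± 0.05 (SE; limma adjusted p = 0.145), similar in size to its treatment estimate. No spot value of Cd52 was dim.

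Cd83, an immunoglobulin-like protein of mature dendritic cells and activated lymphocytes, came second. Its ratios ran from -0.23 over a median of 0.13 to 0.68 with the treated RNA in Cy5 and from -0.23 over a median of 0.18 to 0.41 in the swaps. The orientations overlap almost fully, and 11 of 15 arrays lay above 0. The estimate was 0.17 ± 0.07 (SE; limma adjusted p = 0.682). It was the only one of the 10 costimulation genes at an unadjusted p under 0.05, and it was not without any one of arrays 1, 2, 4, 9, 13, 14 and 15.

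Among the 5 signalling chains and coreceptors of the T cell receptor that were on the arrays, 4 were below 0 and 1 above, with none at an unadjusted p under 0.05. Cd3d and Cd3g encode the delta and gamma chains of CD3 and are neighbours with no other coding gene between them in the RefSeq gene order. Cd3d ran from -0.90 over a median of 0.31 to 1.03 with the treated RNA in Cy5 and from -0.74 over 0.23 to 0.47 in the swaps. Its estimate was 0.12 ± 0.14 (SE; limma adjusted p = 0.865). Cd3g ran from -0.46 over 0.18 to 0.80 and from -0.50 over -0.36 to -0.15, below 0 in all 7 swaps. Its estimate was -0.06 ± 0.08 (SE; limma adjusted p = 0.876). The neighbours thus had estimates of opposite sign, both within 1 standard error of 0.

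Cd247, the zeta chain that carries the signal into the cell, was covered by 4 probes. Averaged, it ran from -2.07 over 0.01 to 0.70 with the treated RNA in Cy5 and from -1.10 over 0.06 to 0.49 in the swaps. The lowest value stood alone on array 7. The estimate was -0.12 ± 0.17 (SE; limma adjusted p = 0.878), and the 4 probes gave -0.39 ± 0.39, -0.11 ± 0.12, -0.17 ± 0.14 and 0.23 ± 0.28. The first and the last of these held 8 and 6 dim values. The probe estimates did not share a sign, and none passed.

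The coreceptor of cytotoxic T cells is built from the alpha chain Cd8a and the beta chain Cd8b1, which are also adjacent genes. Cd8a ran from -0.92 over 0.03 to 0.53 with the treated RNA in Cy5 and from -1.14 over 0.07 to 0.55 in the swaps. Its estimate was -0.08 ± 0.13 (SE; limma adjusted p = 0.904). Its 3 probes gave -0.20 ± 0.39, -0.15 ± 0.21 and 0.06 ± 0.07, and the last of these, with no dim value, had the opposite sign to the others. Cd8b1 had the widest range of all 41 genes, 5.25, from -3.53 on array 7 to 1.73 on array 1. Its estimate was -0.06 ± 0.28 (SE; limma adjusted p = 0.970) and turned to 0.18 without array 7.

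**Figure D2:**
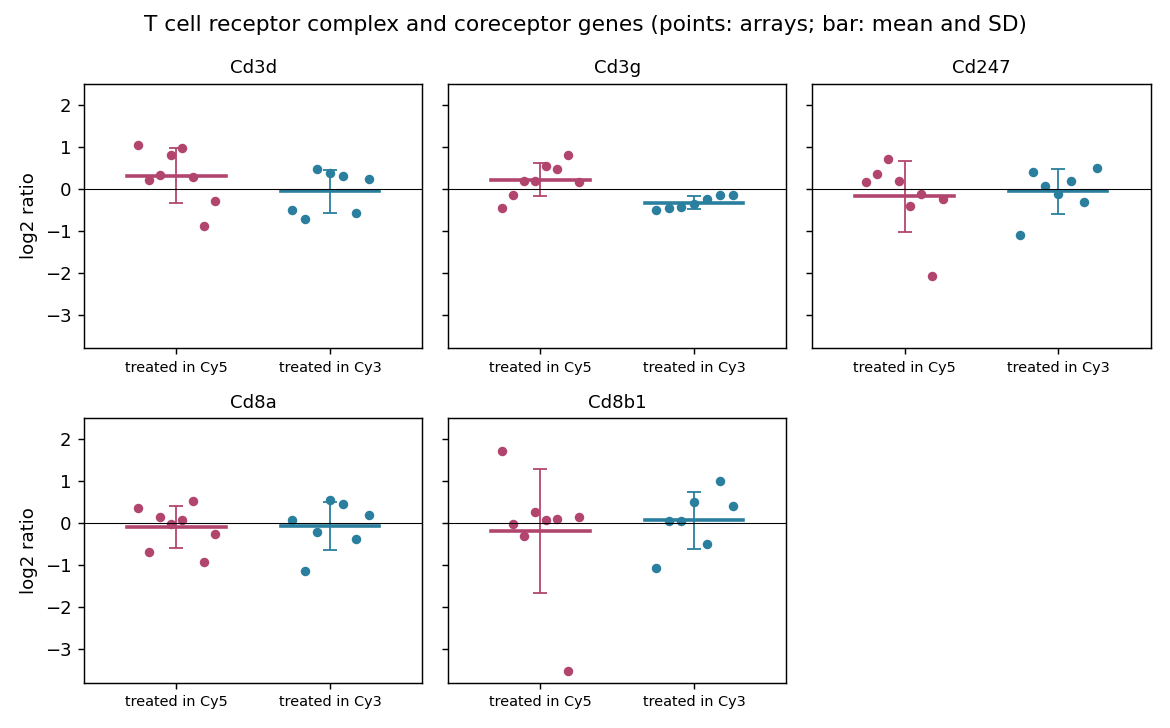
Log2 ratios of the 5 T cell receptor complex and coreceptor genes on each array (points), by dye of the treated RNA, with mean and SD (bars). Cd3g lies below 0 in all 7 swaps, and single points at -3.53 (Cd8b1) and -2.07 (Cd247) belong to array 7.

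Of the 10 costimulation and immune receptor genes, 6 lay above 0 and 4 below it, and their median was 0.04. The lowest was Cd96, a receptor of the nectin-binding family on T and NK cells, at -0.09 ± 0.12 (SE). Cd200, the ligand of an inhibitory receptor on myeloid cells, was above 0 on all 8 arrays where Cy5 marked the treated RNA (0.01 to 0.41) and in 3 of 7 swaps (-0.36 to 0.45). Its estimate was 0.08 ± 0.06 (SE; limma adjusted p = 0.789), and its 2 probes gave 0.10 ± 0.08 and 0.06 ± 0.07. Estimates of Cd2, Cd6, Cd7, Cd27, Cd40, Cd48 and Cd86 lay between -0.06 and 0.08. All 10 genes had intervals within -0.5 to 0.5, as did 84.3% of all genes tested.

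Among the members, Cd74 was the sole gene grouped under B cells and antigen presentation, with Cd22 and Cd79b left out beforehand. It encodes the invariant chain that escorts MHC class II molecules. Its estimate was 0.03 ± 0.05 (SE; limma adjusted p = 0.928), the average of 3 probes at 0.23 ± 0.11, -0.12 ± 0.07 and -0.04 ± 0.07 that differed in sign. Its range over arrays, 0.58, was the second narrowest of all 41.

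The 6 tetraspanins were split evenly around 0, with a median of -0.01. Cd81, which joins the B cell coreceptor, was at 0.06 ± 0.06 (SE), and Cd63, a tetraspanin of lysosomes and exosomes, at 0.03 ± 0.06. Cd151, a partner of laminin-binding integrins, was at -0.06 ± 0.07, and Cd37, a tetraspanin of leukocytes, at -0.05 ± 0.05. Cd9 and Cd82 had the widest intervals of the tetraspanins. Cd9 ran from -2.10 to 1.66, 9 of its 14 values were dim, and its estimate was -0.20 ± 0.24. Cd82 had the most missing values, with 4 of 8 and 6 of 7 arrays measured. Its values were 2.20, 0.50, -0.53 and -0.08 on arrays 1, 6, 7 and 8 and ran from -0.99 over -0.16 to 0.60 in the swaps. The estimate was 0.20 ± 0.25 (SE, n = 10; limma adjusted p = 0.865), with 7 of 10 values dim and 2 further values that were placeholders, both above 0. With placeholders left in as numbers the estimate was 2.90 (SE 1.604; limma adjusted p = 0.777).

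Of 5 myeloid, scavenger and lectin receptor genes, 4 were below 0, with a median of -0.07. The inhibitory receptor Cd300a was at -0.06 ± 0.05 (SE; limma adjusted p = 0.810). The C-type lectin genes Cd209d and Cd302 were at -0.10 ± 0.17 and -0.08 ± 0.15. The secreted macrophage protein Cd5l was at -0.07 ± 0.20 and the lysosomal macrophage protein Cd68 at 0.01 ± 0.07. None passed an unadjusted p under 0.05.

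The proteins that shield cells from complement gave the lowest and the highest estimate of all 41 genes. Cd55, which speeds the decay of C3 convertases, ran from -2.03 on array 7 over a median of 0.18 to 0.72 with the treated RNA in Cy5. In the swaps it ran from -0.65 over -0.30 to 0.09. Its estimate was -0.25 ± 0.17 (SE, n = 14; limma adjusted p = 0.785) and -0.09 without array 7. Cd59b ran from -0.93 over 0.22 to 0.88 and from -0.20 over 0.30 to 0.91, with an estimate of 0.23 ± 0.12 (SE; limma adjusted p = 0.740). Its neighbour and close copy Cd59a, which like it blocks the membrane attack complex, was at 0.20 ± 0.20 (SE, n = 13). cDNA probes of such similar genes may share target RNA, so these are not separate measurements with certainty. On array 4, Cd59a read 2.44, the highest value of any member, while Cd59b read 0.16. Of the 13 values of Cd59a, 4 were dim. Cd109, a lipid-anchored protein related to alpha-2-macroglobulin, was at -0.01 ± 0.07, from 2 probes at 0.11 ± 0.07 and -0.12 ± 0.11.

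Of 7 adhesion molecules, mucins and other receptors, 2 lay above 0 and 5 below it, and their median was -0.04. Cd44, the hyaluronan receptor, ran from -1.16 over -0.29 to 0.23 with the treated RNA in Cy5 and from -0.35 over 0.01 to 0.36 in the swaps. Its estimate was -0.15 ± 0.09 (SE; limma adjusted p = 0.764). Cd47, which signals to macrophages not to engulf the cell, had values up to 2.04 (array 3). Its estimate was 0.14 ± 0.14 (SE; limma adjusted p = 0.847) and 0.01 without that array. Cd34, Cd99l2, Cd164, Cd320 and Cd99 lay between -0.11 and 0.07. In no group of their own, Cd248 (endosialin, a protein of pericytes and stromal cells) was at 0.15 ± 0.10 with 7 of 14 values dim, and the receptor gene Cd300c2 at 0.03 ± 0.14.

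**Figure D3:**
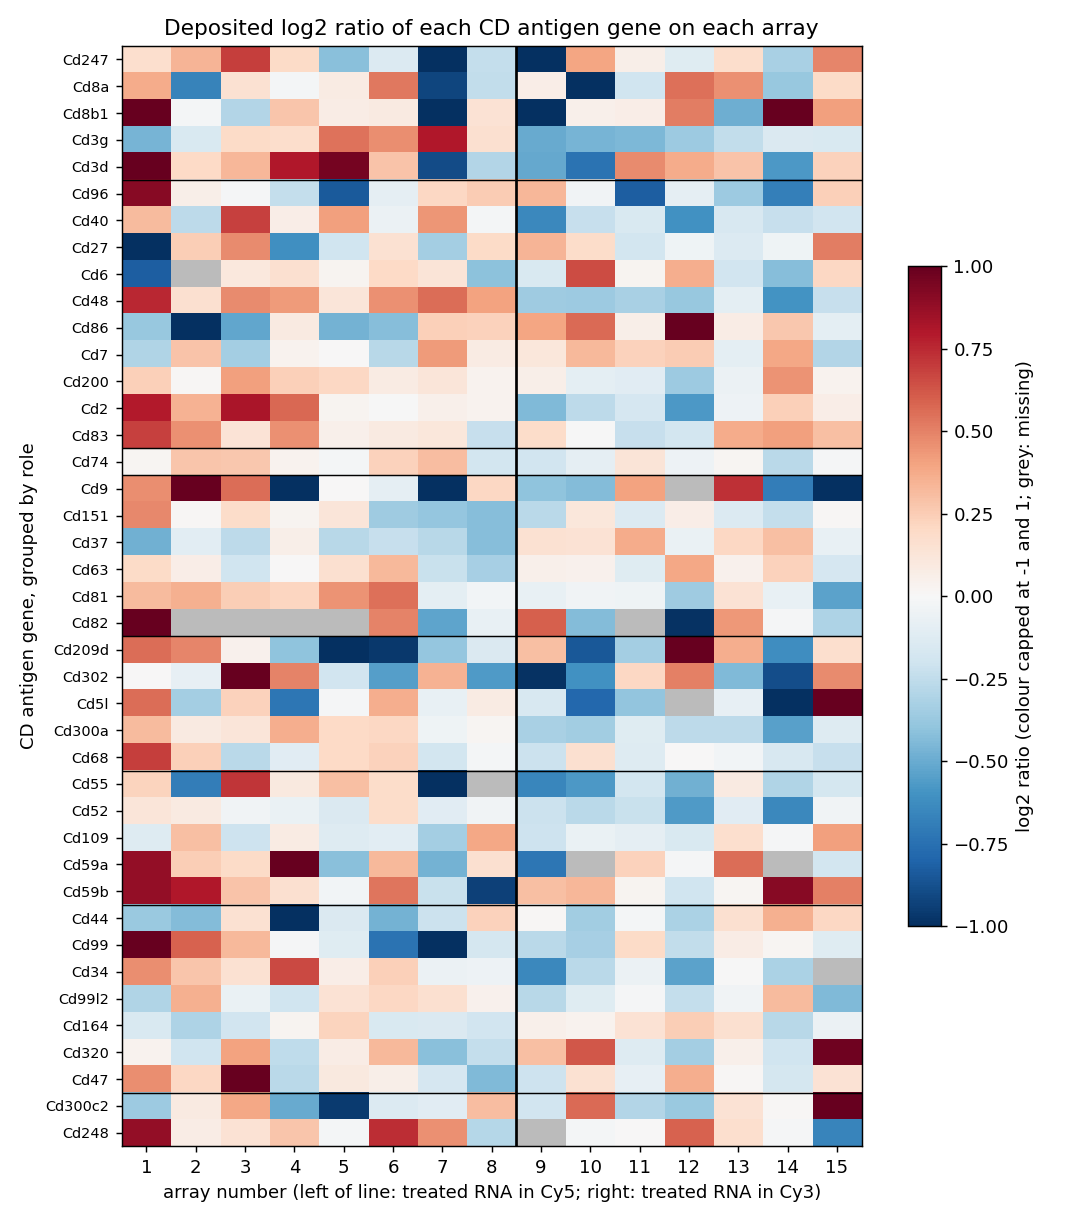
Log2 ratio of each CD antigen gene (rows, grouped by role) on each array (columns), with colours capped at -1 and 1 and missing values in grey. Cd48 is above 0 on arrays 1 to 8 and below 0 on arrays 9 to 15. The rows of Cd8b1 and Cd9 hold values beyond 1 in both directions, and those of Cd247 beyond 1 in size lie below 0.

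The dye effect had a median size regardless of sign of 0.12 for the CD antigens and 0.10 for all genes tested. It passed limma's test in 2 of 41, or 4.88%, where 2.61% of all genes passed. These were Cd48 and Cd300a. At an unadjusted p under 0.05 there were 10 of 41, or 24.4%, beside 19.5% of all genes. Of the 10, 8 were above 0, beside 1009 of the 1895 among all genes. The values of both orientations did not overlap in 2 of 41, the same Cd48 and Cd300a, against 1.44% of all genes.

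Cd48 is a lipid-anchored ligand of Cd2 and of the NK cell receptor Cd244a. With the treated RNA in Cy5 its log2 ratios were 0.75, 0.16, 0.47, 0.43, 0.12, 0.45, 0.56 and 0.40 on arrays 1 to 8. In the swaps they were -0.36, -0.36, -0.32, -0.38, -0.10, -0.59 and -0.23 on arrays 9 to 15. Every array of the first set lay above 0 and every swap below. The dye effect was 0.38 ± 0.06 (SE, n = 15; limma adjusted p = 0.00415), and it passed without any single array (adjusted p from 0.00577 to 0.0149). The treatment estimate of Cd48 was 0.04 ± 0.06 (SE; limma adjusted p = 0.872).

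Cd300a, an inhibitory receptor that binds phosphatidylserine on dying cells, ran from -0.05 over 0.16 to 0.36 with the treated RNA in Cy5 and from -0.54 over -0.26 to -0.12 in the swaps. Its dye effect was 0.22 ± 0.05 (SE; limma adjusted p = 0.0278). It did not pass without any one of arrays 5, 6, 9, 10, 12 and 14 (adjusted p from 0.0502 to 0.0628). With the swaps turned, the calls of Cd48 and Cd300a would be treatment calls at 0.38 and 0.22.

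The next 4 genes by p of the dye effect did not pass, close to the threshold. Cd37 was at -0.20 ± 0.05 (SE; limma adjusted p = 0.0580), Cd34, a sialomucin of blood progenitors, at 0.26 ± 0.07 (adjusted p = 0.0632), Cd40, a TNF receptor family member of B cells, at 0.26 ± 0.07 (adjusted p = 0.0681), and Cd3g at 0.27 ± 0.08 (adjusted p = 0.0765). Cd37 was below 0 on 7 of 8 arrays where Cy5 marked the treated RNA and above 0 in 5 of 7 swaps. Cd34, Cd40 and Cd3g were above 0 on 6, 5 and 6 of 8 and on none of the swaps measured, 6 for Cd34 and 7 for the others. Cd37 passed with placeholders left in, after median centring, after quantile normalization, when genes with a missing value were dropped and with array weights (limma adjusted p from 0.0123 to 0.0481), and Cd3g passed with array weights (adjusted p = 0.0139). Without arrays 7, 8 and 15, 5 members passed for the dye effect: Cd34, Cd48, Cd81, Cd86 and Cd300a. The share of all genes passing in that run was not counted, so the rise cannot be assigned to the members.

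**Figure D4:**
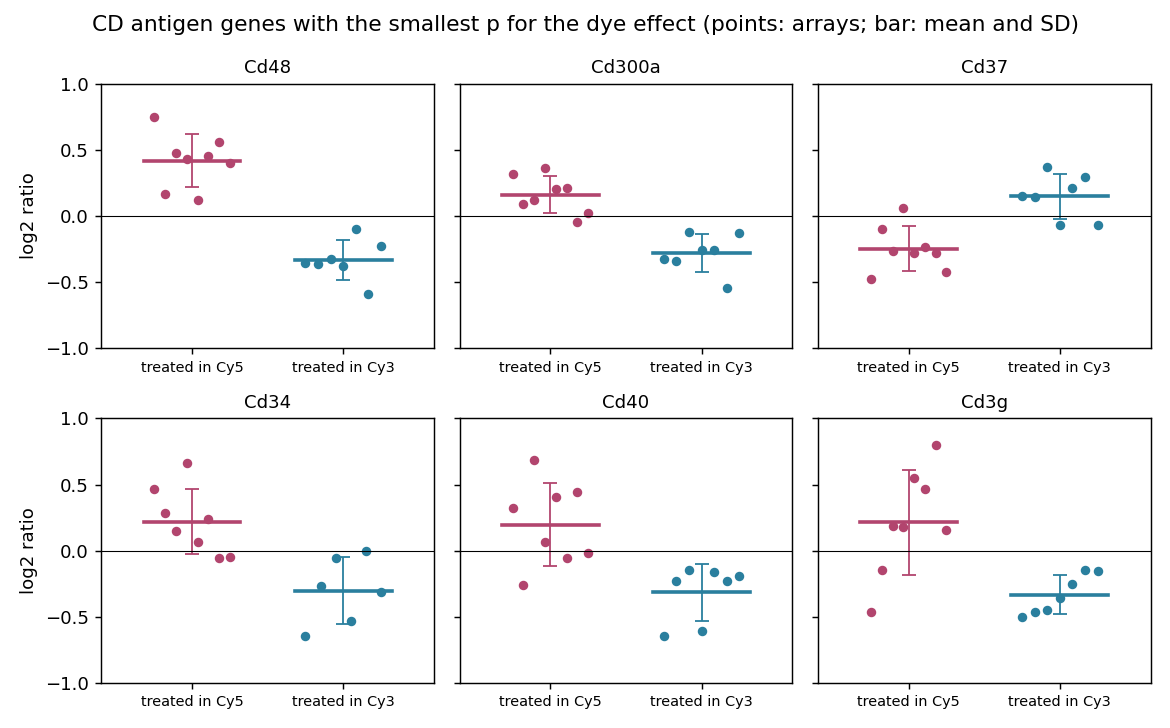
Log2 ratios of the 6 CD antigen genes with the smallest p for the dye effect on each array (points), by dye of the treated RNA, with mean and SD (bars). The orientations do not overlap for Cd48 and Cd300a, and Cd37 runs opposite to the other 5.

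Fitted by orientation, no CD antigen passed limma's adjusted threshold in either. With the treated RNA in Cy5, 6 of 41 had an unadjusted p under 0.05 (Cd2, Cd34, Cd37, Cd48, Cd81 and Cd200), where 13.1% of all genes did. With it in Cy3, 7 of 41 had one (Cd3g, Cd34, Cd40, Cd48, Cd52, Cd55 and Cd300a), where 14.5% did. Cd34 and Cd48 were in both lists with opposite signs. The mean of 19 genes was above 0 in Cy5 and below 0 in Cy3 (46.3%, beside 29.7% of all genes). The reverse held for 13 (31.7%, beside 30.6%), so that 32 of 41 had opposite signs.

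The median of the CD antigens was above 0 on 6 of 8 arrays where Cy5 marked the treated RNA and in 2 of 7 swaps. It reached 0.32 on array 1 and -0.20 on array 9, where the median of all genes was 0.05 and -0.03. In the swaps, the medians above 0 were 0.018 (array 13) and 0.00083 (array 15). The median of all genes was also above 0 on arrays 1 to 6, 11, 13 and 15 and below 0 on the others. That of the CD antigens lay farther from 0 on 14 of the 15 arrays. Arrays 7 and 8, which stood apart from the others, were the 2 arrays of the first set with a median below 0.

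**Figure D5:**
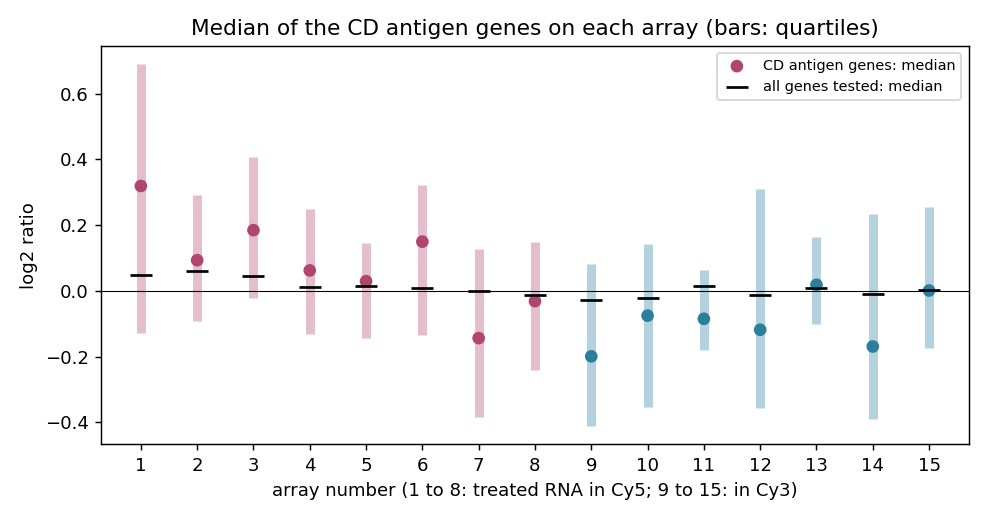
Median log2 ratio of the CD antigen genes on each array (points) with quartiles (coloured bars), beside the median of all genes tested (black dashes). Medians of the CD antigens lie above 0 on arrays 1 to 6 and below 0 on arrays 7 to 12 and 14. Medians of all genes tested have the same signs on arrays 1 to 8.

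Single arrays contributed the largest ratios. Of 602 gene values, 28 in 17 genes exceeded 1 in size, 5 each on arrays 1 and 7. The share over all genes was not counted. The SD over all genes tested was 0.74 on array 7, the largest of any array, and 0.59 on array 1. On array 7 these were Cd8b1 (-3.53), Cd99 (-2.27), Cd247 (-2.07), Cd55 (-2.03) and Cd9 (-1.17), all below 0. On array 1, Cd82 (2.20, a dim value), Cd8b1 (1.73), Cd99 (1.35) and Cd3d (1.03) were above 1 and Cd27 (-1.10) below -1. Cd9 was also below -1 on arrays 4 and 15 and above 1 on array 2, the last a dim value. The highest value was that of Cd59a on array 4 (2.44). Array 15 held 3 values beyond 1 in size, those of Cd9, Cd5l (1.96) and Cd300c2 (1.715). Further values beyond 1 lay on other arrays. Cd5l, Cd8b1, Cd9, Cd86, Cd99 and Cd209d were each beyond 1 in both directions on different arrays.

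Leukocyte antigens that carry a CD number under another symbol were examined beside them. Of 62 such genes listed, 35 were tested, with 18 above 0, 17 below and a median of 0.01. None passed limma's adjusted threshold for the treatment, and 4 had an unadjusted p under 0.05 (11.4%, beside 7.02% of all genes and 4.88% of the members). Ptprc (CD45, the leukocyte phosphatase) was at 0.19 ± 0.05 (SE; limma adjusted p = 0.392), and Sirpa, the receptor of Cd47, at -0.15 ± 0.05 (adjusted p = 0.551), below 0 on 14 of 15 arrays. Spn (CD43, a sialomucin) was at -0.26 ± 0.10 (adjusted p = 0.653) and the inhibitory Fc receptor Fcgr2b at -0.11 ± 0.05 (adjusted p = 0.704). Markers tested beside them had medians of 0.06 (8 pluripotency genes), 0.01 (10 fibroblast genes), -0.07 (3 erythroid genes), -0.07 (3 T cell genes), 0.11 (3 B cell genes) and -0.12 (6 myeloid genes, all below 0), and none of these genes passed the adjusted threshold for the treatment. Of the 6 myeloid genes, 2 had an unadjusted p under 0.05 for the treatment (33.3%, beside 7.02%) and 4 for the dye effect (66.7%, beside 19.5%), of which 1 passed the adjusted threshold. The part of myeloid markers in the values of the CD antigens was not tested.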

How the data were processed

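Two-colour cDNA arrays of 1 treated cell line against its untreated counterpart were analysed. The authors deposited 1 log2 ratio per probe and array, with its scale read from the values. The normalization, the scanner software and the genome build were not given in the sources used here. Values beyond 10 in size (placeholders of a channel with no signal) were set to missing. Of 20205 probes, 13891 had 1 gene symbol, 5 several and 6309 none, and 13855 were found in the RefSeq table of assembly GRCm38.p6 that updated the symbols. Probes of a gene were averaged on each array. limma 3.58.1 (R 4.3.3) fitted treatment estimate and dye effect on 9720 genes measured on 4 or more arrays per orientation, with Benjamini-Hochberg adjustment. The fit was also run on simulated data with independent noise, without dim values or outlying arrays. That run does not show how the fit handles these. A dim value lay within 0.0015 of the log2 ratio that whole numbers of at most 6 give after adding the array's constant. The members, lists and direction were chosen with earlier results of these data known. From the members, 3 genes of matching symbol were left out (Cd22, Cd24a and Cd79b). Named with values are the 10 members of smallest p for the treatment, the 6 for the dye effect, the T cell receptor group, the member with most missing values and the extremes of each role group. Other members given with values, such as Cd81, Cd63 and Cd151, were named after their values were seen. Arrays give no read depth, and their number limits the precision. The labels do not say whether swapped arrays share RNA with the others. If they do, the p-values are too small.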

Additional observations from a re-analysis of the deposited data

Results flagged for a closer look

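In the 38 sets of arrays examined, 1 for each dye orientation of 19 named genes, 3 values stood far from the others of their orientation. Chance marks about 1 in 20 such sets. The log2 ratio of Cd47 was 2.041 on array 3, with the nearest other value at 0.465. Cd247 was at -2.073 on array 7, nearest -0.4215, and Cd8b1 at -3.525 on the same array, nearest -0.291. The cause was not tested.

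The ratio differed between dye orientations in 2 genes by limma's test of the difference itself. The dye effect of Cd48 was 0.3771 (adjusted p = 0.00415), above 0 on 8 of 8 arrays where Cy5 marked the treated RNA and on 0 of 7 swaps. That of Cd300a was 0.2205 (adjusted p = 0.0278), above 0 on 7 of 8 and on 0 of 7.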

How the results depend on the processing

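None of the 41 genes passed limma for the treatment under any alternative run except with the dye swaps turned, where 2 did. With the swaps turned, 254 genes in all passed, 10 members had an unadjusted p under 0.05, and for the dye effect 0 members passed and 2 had an unadjusted p under 0.05. Treatment estimates with changed sign were then 0.15 (Cd52), -0.043 (Cd59b), 0.077 (Cd55), 0.22 (Cd300a), 0.26 (Cd34), 0.26 (Cd40) and 0.27 (Cd3g), and dye effects -0.062 (Cd300a), -0.041 (Cd34), -0.059 (Cd40) and -0.059 (Cd3g). Among all genes 4 passed for the treatment, but 8 with placeholders left in, 8 with 1 probe per gene, 11 with array weights, and 0 in either orientation alone or without arrays 7, 8 and 15. Members at an unadjusted p under 0.05 numbered 1 after scaling, after quantile normalization, without dim spots or without a dye term, 6 with the treated RNA in Cy5 alone, 7 in Cy3 alone and 5 without arrays 7, 8 and 15. At an unadjusted p under 0.05 for the treatment there were 13.1% of all genes in Cy5 alone and 14.5% in Cy3 alone. That share was not counted without arrays 7, 8 and 15. Members passing for the dye effect numbered 4 with array weights and 5 without those arrays. There were 3, with Cd37 added, with placeholders left in, after median centring, after quantile normalization and over genes with values on all 15 arrays. The share of all genes passing for the dye effect was not counted in these runs. Signs of treatment estimates changed in Cy5 alone (Cd52 0.001, Cd300a 0.16, Cd34 0.22, Cd40 0.20, Cd3g 0.22), in Cy3 alone (Cd44 0.0074, Cd200 -0.013, Cd37 0.15, Cd48 -0.34, Cd3d -0.065, Cd8b1 0.073, Cd82 -0.12), with placeholders left in (Cd8a 0.30, while Cd82 kept its sign at 2.90), with 1 probe per gene (Cd8a 0.055), with array weights (Cd34 0.011, Cd8a 0.0098) and without arrays 7, 8 and 15 (Cd34 0.0037, Cd8b1 0.16). The cause was not tested.

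Leaving out each array in turn gave 0 to 7 genes in all, with 0 without array 10, 2 without array 11 and 7 without array 6. It gave 0 members passing for the treatment, 1 to 3 at an unadjusted p, 1 to 3 passing for the dye effect and 10 to 12 at an unadjusted p for it. There were 3 dye calls without array 1 (Cd3g added), 2 (Cd40), 4 or 15 (Cd37) or 7 (Cd34). Shares of all genes passing for the dye effect were not counted with an array left out. The members' median ran from -0.03 to 0.01, treatment estimates of Cd247 from -0.19 to 0.013, of Cd8a from -0.13 to 0.012 and of Cd8b1 from -0.20 to 0.18. With arrays n and n + 8 as a replicate block, a pairing the labels do not state, counts stayed at 0, 2, 2 and 10 members and the median at -0.03, and no call changed. Dim spots limit Cd9, Cd82 and Cd248 most.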

Other observations

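Among the CD antigens under other symbols, 2 of 35 passed limma for the dye effect (5.71%, beside 2.61% of all genes). Bsg (CD147, a partner of monocarboxylate transporters) had a dye effect of 0.42 ± 0.10 (SE; limma adjusted p = 0.0341) and Tnfrsf1a (CD120a, a receptor of tumour necrosis factor) one of 0.39 ± 0.10 (adjusted p = 0.0465). As for Cd48 and Cd300a, the ratio was higher with the treated RNA in Cy5 than in the swaps.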
